A study of Mus musculus with 7 samples.

Results

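The granins and the prohormone processing enzymes are 10 genes, and they were taken as the rows of the gene table named CHGA, CHGB, SCG2, SCG3, SCG5, PCSK1, PCSK2, CPE, PAM and VGF among 34082 gene names. All 10 were present, and all 10 passed the filter on low values (a mean TPM of at least 0.5, where TPM gives the share of a gene in all transcripts of a library, corrected for length), which left 14840 genes to be tested. Gene names are given as in the deposited tables, which use human symbols for most mouse genes.

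Islet RNA was sequenced from 7 female mice on the C57BL/6 background at day 15 of gestation, 1 library for each mouse, and mice were the replicates. The 4 βPrlR+/− mice carry a floxed prolactin receptor (Prlr) allele and Pdx1CreER, a tamoxifen-inducible Cre under the Pdx1 promoter, and per the methods were given 4 mg of tamoxifen per day for 5 days at 8 weeks of age, so that Prlr is deleted from β-cells. The 3 Prlr+/− mice carry a heterozygous null Prlr allele in all tissues and received no tamoxifen. Both groups therefore carry a Prlr deletion, and wild type islets were not analysed here. The effects of the 2 genotypes, of Cre and of tamoxifen therefore cannot be told apart. The methods describe the conditional deletion as heterozygous, whereas the series description calls it homozygous, and the sample titles of this group read CkoWt, a term that the sources used here do not explain. Age is given as 4 to 5 months in the methods and as 3 to 4 months at mating in the series description. Per the methods, islets were hand-picked after collagenase digestion and then cultured overnight. Each value is an average over all islet cells, in which fewer cells of a type and less RNA per cell cannot be told apart. The comparison asks whether loss of Prlr outside β-cells, in addition to within them, alters islet gene expression during pregnancy.

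Peptide hormones are made as inactive precursors that are sorted into dense-core granules of the regulated secretory pathway and cut there. The granins are acidic proteins that aggregate with calcium in the trans-Golgi network and take part in the formation of these granules, and they are themselves precursors of peptides. In β-cells the prohormone convertases PC1/3 and PC2, encoded by PCSK1 and PCSK2, cut proinsulin after pairs of basic residues, carboxypeptidase E removes the basic residues left behind, and in α-cells PC2 makes glucagon from proglucagon. PC2 and the chromogranins are known from several endocrine cell types of the islet, while PC1/3 is mainly a β-cell enzyme there.

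Upstream sequences were taken for the members for which the RefSeq promoter table of GRCm38.p6 has an entry, 8 of the 10 (CPE and VGF have none). The cAMP response element, written TGACGTCA, reads the same on both strands and is bound by factors of the CREB family. In the 250 bases before the start site, the only part searched here and for all promoters, it was found in CHGB, SCG2 and PCSK1, 3 of the 8 genes. Over all promoters it was found in 439 of 27025, or 1.62%. Its shorter form TGACG, searched on both strands and contained in TGACGTCA, was found in 7 of the 8 (all but PAM) and in 17.9% of all promoters. The match lay 72 bases before the start of CHGB, 68 before that of SCG2 and 78 before that of PCSK1, and PCSK1 had a second TGACG at 50 bases. CHGA had TGACG at 44 bases. The last 120 bases before the start of these 4 genes are printed below, each on the strand of its gene and with the matches in capitals, because 3 of them (CHGB, SCG2 and PCSK1) hold the whole element at 68 to 78 bases, while CHGA has only the shorter form, nearer to the start. They lie at chr2:132781522-132781641 (CHGB, plus strand), chr1:79440027-79440146 (SCG2, minus strand), chr13:75089737-75089856 (PCSK1, plus strand) and chr12:102554821-102554940 (CHGA, plus strand).
CHGB: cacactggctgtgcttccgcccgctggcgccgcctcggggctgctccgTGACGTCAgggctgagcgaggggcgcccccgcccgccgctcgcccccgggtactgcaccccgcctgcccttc
SCG2: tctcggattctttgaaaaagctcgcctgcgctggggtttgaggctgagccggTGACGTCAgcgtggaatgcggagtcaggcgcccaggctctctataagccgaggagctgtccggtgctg
PCSK1: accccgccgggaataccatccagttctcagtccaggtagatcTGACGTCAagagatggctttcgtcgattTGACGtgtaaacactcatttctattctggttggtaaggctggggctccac
CHGA: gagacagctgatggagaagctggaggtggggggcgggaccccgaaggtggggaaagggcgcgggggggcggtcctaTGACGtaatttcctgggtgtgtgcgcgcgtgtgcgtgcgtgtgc
A match is a description of the letters only, and no binding was measured in these islets. SCG3 had TGACG at 30 bases, SCG5 at 175 bases and PCSK2 at 34 bases on the opposite strand. Of the 3 genes with TGACGTCA, each had its lowest level in another mouse. CHGB was lowest in βPrlR+/− mouse 3, SCG2 in Prlr+/− mouse 2 and PCSK1 in βPrlR+/− mouse 4.

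The islets had the markers of endocrine cells, and the members' levels have to be read beside 2 shared features of the libraries. INS and Ins1, the insulin genes, took 46.1% to 58.9% of all TPM. TPM was therefore divided by a size factor per mouse, the median ratio of its genes to those of the other mice (0.882 to 1.11), and values are given as this scaled TPM unless stated otherwise. Acinar markers, 8 genes of digestive enzymes, summed to 17961, 1977, 17475 and 5726 in the βPrlR+/− mice, compared with to 5319, 15040 and 7666 in the Prlr+/− mice, so exocrine RNA varied between mice in both groups. PRLR itself had 55.7, 38.4, 47.3 and 38.8 scaled TPM in the βPrlR+/− mice, compared with 36.1, 51.1 and 35.1 in the Prlr+/− mice. These ranges overlapped (log2 fold change −0.15, SE 0.17, limma adjusted p = 1.0), and since both genotypes reduce Prlr the gene gives no check of the labels.

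No difference in the granins and processing enzymes was detected between the islets of the genotypes. None of the 10 passed the test between Prlr+/− and βPrlR+/− mice. Their log2 fold changes, Prlr+/− over βPrlR+/−, lay between −0.12 (PAM) and 0.17 (PCSK1), with 4 above 0 and 6 below, beside 48.3% of all genes below. These signs depend on the scaling. In TPM as deposited 9 of the 10 were below 0 and PCSK1 alone was above, at 0.024, beside 88.1% of all genes below 0 and a median of all genes of −0.12. In scaled TPM the median was −0.0045, beside 0.0042 for all genes tested. No member had an adjusted p under 0.05 in limma's moderated test on log2(scaled TPM + 1), with Benjamini-Hochberg adjustment over all 14840 genes, whereas 10 genes or 0.0674% of all genes did (9 lower in the Prlr+/− mice, 0.0606%, and 1 higher, 0.00674%). No member had an unadjusted p under 0.05, compared with 4.52% of all genes. In no member did the groups fail to overlap, compared with 4.95% of all genes (3.11% wholly lower in the Prlr+/− mice), or 1.84% of the 543 genes whose mean TPM was at least 100, to which 9 of the members belong. The adjusted p was 1.0 for each of the 10. The 95% intervals of all 10 differences included 0 and lay between −0.53 and 0.53, so a change of 1 log2 unit in either direction was outside every one of them. For CHGA this limit depends on which genes enter the fit, since its SE of 0.20 became 0.80 with all genes above 0, and its interval then reached beyond 1 log2 unit on both sides. The values of the mice for CHGA were the same in that fit. With a variance that does not depend on the level, its SE was 0.13.

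**Figure D1:**
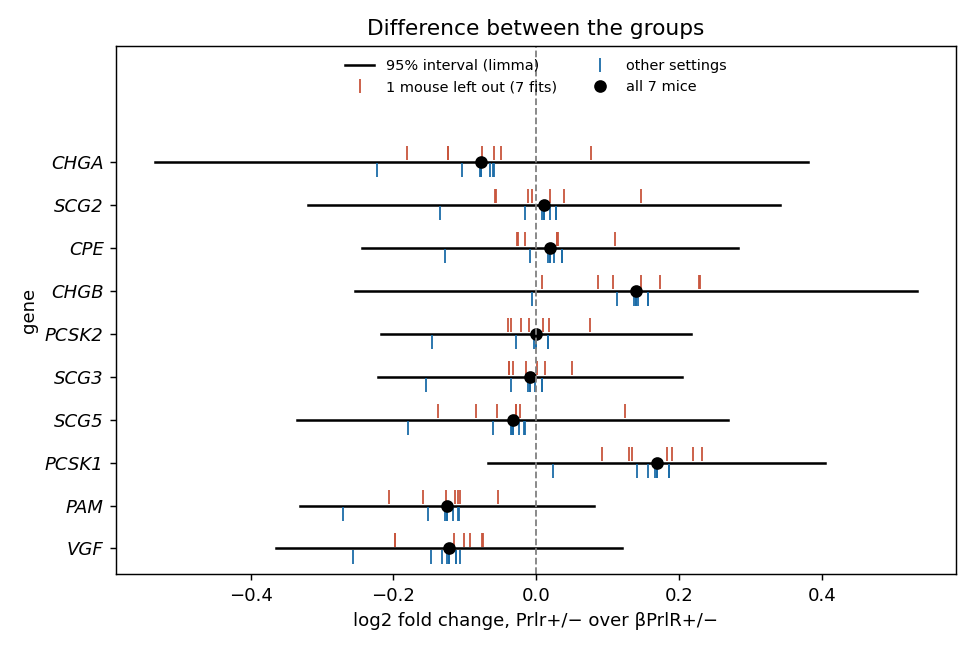
Difference between the groups for each of the 10 genes, as the log2 fold change of Prlr+/− over βPrlR+/− mice (horizontal axis), with black points for the fit to all 7 mice and lines for its 95% interval. Red ticks are fits without 1 mouse and blue ticks are other settings of the processing. Every interval crosses 0, and PCSK1, at 0.17, is farthest from it.

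CHGA, chromogranin A, is the precursor of peptides such as pancreastatin and vasostatin and was the highest of the 10, ranking 7th of all gene names. Its level was 7986, 8254, 7252 and 8425 scaled TPM in the βPrlR+/− group (mice 1 to 4), compared with 8748, 6123 and 8046 in the Prlr+/− group (mice 1 to 3). The highest and the lowest mouse of all were both Prlr+/− mice. The means were 7979 ± 518 (SD, n = 4) and 7639 ± 1359 (SD, n = 3), which amounts to a log2 fold change of −0.077 (SE 0.20, 95% interval −0.53 to 0.38). Without Prlr+/− mouse 2 the difference changed sign, to 0.076.

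CHGB, chromogranin B or secretogranin I, was the most variable of the 10. It had 1321.9, 1176, 839 and 1116 scaled TPM in the βPrlR+/− mice, compared with 1073, 1306 and 1265 in the Prlr+/− mice. The low value was that of βPrlR+/− mouse 3, and the other 6 mice lay within 1073 to 1321.9. The means of 1113 ± 202 (SD, n = 4) and 1215 ± 124 (SD, n = 3) gave a log2 fold change of 0.14 (SE 0.17, interval −0.25 to 0.53), and without βPrlR+/− mouse 3 it was 0.0084.

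SCG2, secretogranin II or chromogranin C, is the precursor of secretoneurin. It had 2405, 2507, 2298 and 2262 scaled TPM in the βPrlR+/− mice, compared with 2623, 1976.5 and 2612 in the Prlr+/− mice. As with CHGA, the spread was wider in the Prlr+/− group, where mouse 2 lay below and mice 1 and 3 above every βPrlR+/− mouse. The means were 2368 ± 111 (SD, n = 4) and 2404 ± 370 (SD, n = 3), with a log2 fold change of 0.011 (SE 0.14, interval −0.32 to 0.34).

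SCG3, secretogranin III, binds chromogranin A and cholesterol of the granule membrane. It was among the steadiest, at 559, 664, 584 and 554 scaled TPM in the βPrlR+/− mice, compared with 569, 579 and 608 in the Prlr+/− mice. All 3 Prlr+/− mice lay inside the range of the βPrlR+/− mice. The means differed by −0.0084 on the log2 scale (SE 0.091, interval −0.22 to 0.20).

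VGF, a granin-like precursor of several secreted peptides, was by far the lowest of the 10, ranking 5609th of all gene names. Its level was 12.4, 13.2, 10.02 and 12.06 scaled TPM in the βPrlR+/− mice, compared with 10.4, 10.1 and 12.10 in the Prlr+/− mice. βPrlR+/− mouse 3 was the lowest of all 7, and Prlr+/− mouse 3 lay just above βPrlR+/− mouse 4, so the groups overlapped also without the lowest mouse. The means were 11.9 ± 1.34 (SD, n = 4) and 10.8 ± 1.10 (SD, n = 3), with a log2 fold change of −0.12 (SE 0.10, interval −0.36 to 0.12). In TPM as deposited, VGF was the only member whose groups did not overlap, with 11.7, 14.1, 11.1 and 12.8 in the βPrlR+/− mice, compared with 9.94, 10.02 and 10.7 in the Prlr+/− mice. On that scale 8.42% of all genes lay wholly lower in the Prlr+/− mice and 0.29% wholly higher, 8.71% in all, and the median of all genes was −0.12, so the fold change of VGF there, −0.26, stands beside a shift of all genes in the same direction.

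SCG5 encodes 7B2, a granin-like chaperone that is needed for the activation of PC2. It had 522, 528, 496 and 522 scaled TPM in the βPrlR+/− mice, compared with 585, 406 and 542 in the Prlr+/− mice. The 4 βPrlR+/− mice were close together (517 ± 14.1, SD), while the 3 Prlr+/− mice (511 ± 93.2, SD) reached beyond them on both sides. The log2 fold change was −0.033 (SE 0.13, interval −0.33 to 0.27), and without Prlr+/− mouse 2 it was 0.12 (SE 0.072, limma adjusted p = 0.802). In that case the remaining Prlr+/− mice both lay above every βPrlR+/− mouse, as they also did for SCG2, PCSK2 and CPE. The share of all genes with this pattern was not counted, so nothing is read from it.

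**Figure D2:**
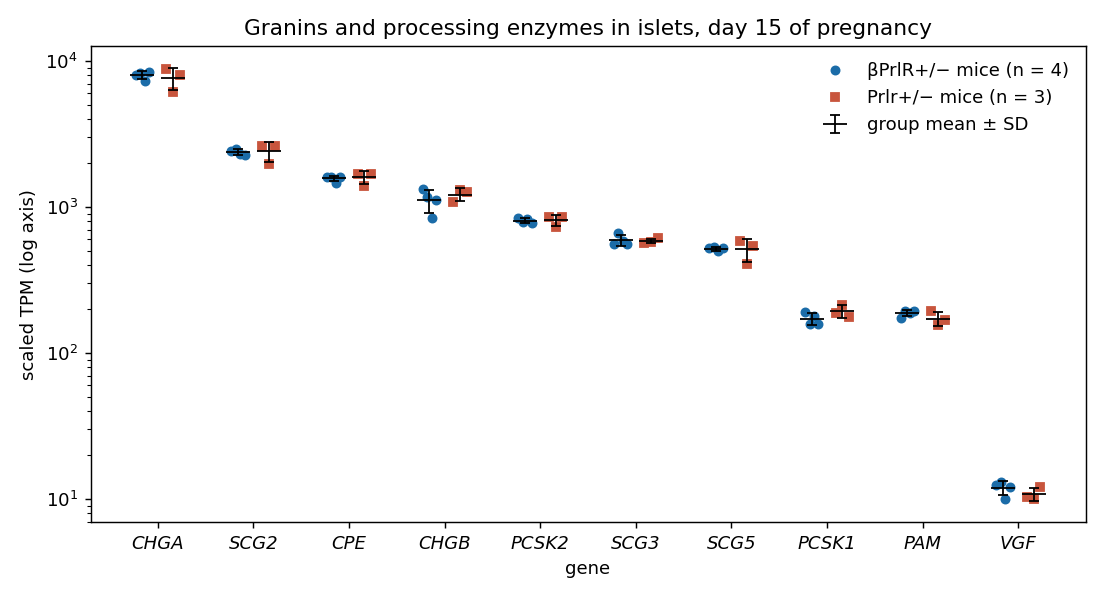
Level of each gene in each mouse as scaled TPM on a log axis, in order of the mean level, with blue circles for the 4 βPrlR+/− mice, red squares for the 3 Prlr+/− mice and bars for the group mean ± SD. The groups overlap in every gene, and levels run from 8748 for CHGA down to 10.02 for VGF.

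Of the convertases, PCSK1 had the smallest p of the 10 genes. PC1/3 makes the first cut in proinsulin, at the junction of B-chain and C-peptide. PCSK1 had 190.1, 158.9, 179.6 and 157.7 scaled TPM in the βPrlR+/− mice, compared with 188.8, 214.5 and 175.8 in the Prlr+/− mice. Prlr+/− mouse 2 was the highest, and βPrlR+/− mouse 1 was above the other 2 Prlr+/− mice. The means were 172 ± 15.9 (SD, n = 4) and 193 ± 19.7 (SD, n = 3), which amounts to a log2 fold change of 0.17 (SE 0.10, interval −0.067 to 0.40, unadjusted p = 0.136 and adjusted p = 1.0 in limma). That p ranked 1703rd of the 14840 genes tested, and without Prlr+/− mouse 2 the fold change was 0.092.

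PCSK2 was several times higher than PCSK1 in every mouse, and steadier. It had 838, 789, 828 and 771 scaled TPM in the βPrlR+/− mice, compared with 847, 727 and 849 in the Prlr+/− mice. The means of 806 ± 31.5 (SD, n = 4) and 808 ± 69.7 (SD, n = 3) were nearly equal, with a log2 fold change of −0.00050 (SE 0.093, interval −0.22 to 0.22). PCSK2 had the smallest spread of the 10 around its group means, an SD of 0.092 on the log2 scale.

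CPE trims basic residues from the ends that the convertases leave and was the 20th highest of all gene names. It had 1599, 1599, 1464 and 1604 scaled TPM in the βPrlR+/− mice, compared with 1690, 1399 and 1688 in the Prlr+/− mice. Mice 1, 2 and 4 of the βPrlR+/− group lay within 1599 to 1604, with mouse 3 apart from them. The means were 1567 ± 68.6 (SD, n = 4) and 1592 ± 167 (SD, n = 3), and the log2 fold change was 0.019 (SE 0.11, interval −0.24 to 0.28).

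PAM, peptidylglycine α-amidating monooxygenase, amidates the ends of peptides such as islet amyloid polypeptide and pancreatic polypeptide. Its level was 173.9, 192.8, 187.3 and 194.0 scaled TPM in the βPrlR+/− mice, compared with 192.3, 155.2 and 168.3 in the Prlr+/− mice. Prlr+/− mice 2 and 3 lay below every βPrlR+/− mouse, and Prlr+/− mouse 1 lay among them. The means of 187 ± 9.23 (SD, n = 4) and 172 ± 18.8 (SD, n = 3) gave the lowest fold change of the 10, −0.12 on the log2 scale (SE 0.088, interval −0.33 to 0.081), and without Prlr+/− mouse 2 it was −0.053.

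Single mice stood apart in several of the genes at once. Prlr+/− mouse 2 had the lowest value of 6 of the 10 genes (CHGA, SCG2, SCG5, PCSK2, CPE and PAM) and the highest of PCSK1. In this mouse CHGA was 0.35 log2 units below its mean over the 7 mice (a deviation of −0.35), SCG5 deviated by −0.33 and SCG2 by −0.26. CHGB and PCSK1 deviated upwards, by 0.19 and 0.25. Prlr+/− mouse 1 had the highest value of 4 genes (CHGA, SCG2, SCG5 and CPE) and the lowest of none. βPrlR+/− mouse 3 had the lowest CHGB, with a deviation of −0.45, and the lowest VGF, with −0.19. The acinar sums of Prlr+/− mouse 2 (15040) and βPrlR+/− mouse 3 (17475) were among the 3 highest, as was that of βPrlR+/− mouse 1 (17961), in which 8 of the 10 genes were above their mean. With the acinar markers as a covariate the fold changes remained close, at −0.065 for CHGA, 0.14 for CHGB and 0.16 for PCSK1, and no member passed the test.

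**Figure D3:**
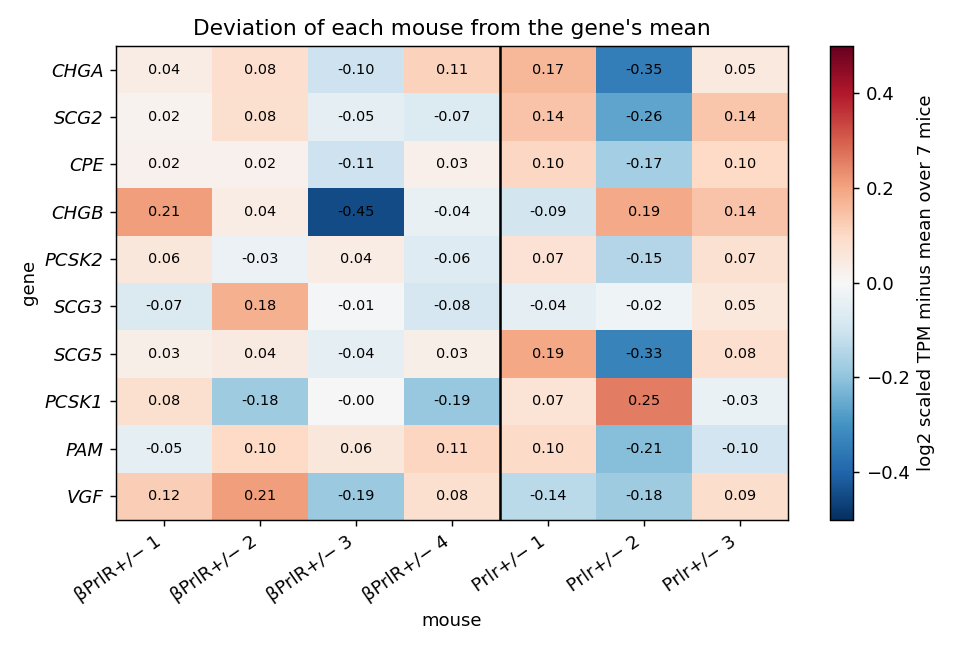
Deviation of each mouse (columns) from a gene's mean over all 7 mice (rows), as a difference of log2 scaled TPM, with blue for lower and red for higher and a black line between the groups. Prlr+/− mouse 2 has the lowest value in 6 rows, and the strongest single deviation is that of CHGB in βPrlR+/− mouse 3, at −0.45.

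The spread of the members around their group means lay on both sides of that of other strongly expressed genes. It ran from an SD of 0.092 log2 units for PCSK2, 0.099 for SCG3 and 0.11 for CPE and PAM up to 0.18 for SCG5, 0.19 for CHGA and 0.24 for CHGB. The median of the 543 genes whose mean TPM was at least 100 was 0.138.

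TPM is a measure per transcript length, so levels of different genes can be compared within a mouse, and the order was largely the same in all of them. CHGA exceeded SCG2 3.29 ± 0.22-fold (SD, n = 7), and SCG2 exceeded CPE 1.51-fold, each in 7 of 7 mice. CPE was above CHGB and CHGB above PCSK2 in 7 of 7 mice, although these ratios came down to 1.07 and 1.01 in single mice. PCSK2 exceeded SCG3 1.38 ± 0.12-fold, again in 7 of 7. Neighbours that could not be told apart beyond their spread were SCG3 and SCG5 (ratio 1.15 ± 0.15, SCG3 higher in 6 of 7 mice) and PCSK1 and PAM (ratio 1.01 ± 0.19, PCSK1 higher in 3 of 7). VGF stood apart at the bottom, with PAM 15.9 ± 2.0-fold above it. CHGA alone made up 47.5% to 54.0% of the TPM of the 10 genes.

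Ratios of partner genes do not depend on the scaling. PCSK1 per PCSK2 was 0.227, 0.201, 0.217 and 0.205 in the βPrlR+/− mice, compared with 0.223, 0.295 and 0.207 in the Prlr+/− mice, so that Prlr+/− mouse 2 lay above the other 6. SCG5, the chaperone, per PCSK2, its client, was 0.600 to 0.677 in the βPrlR+/− mice, compared with 0.559 to 0.691 in the Prlr+/− mice, and the groups overlapped. PCSK1N encodes proSAAS, a granin-like inhibitor of PC1/3, and PCSK1N per PCSK1 was 2.34, 2.89, 2.15 and 2.37 in the βPrlR+/− mice, compared with 2.10, 1.64 and 2.29 in the Prlr+/− mice. These too overlapped, with means of 2.44 ± 0.32 (SD, n = 4) and 2.01 ± 0.33 (SD, n = 3). CPE per PCSK1 and PCSK2 together was the steadiest of these ratios, at 1.45 to 1.73 over all 7 mice. CHGB per CHGA ranged most widely, from 0.116 in βPrlR+/− mouse 3 to 0.213 in Prlr+/− mouse 2.

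Relative to the insulin transcripts, the granins and processing enzymes were lower on average in the Prlr+/− mice, as were nearly all genes. The mean per INS and Ins1 was lower in the Prlr+/− group for all 10 genes, beside 95.5% of all genes tested and 95.8% of those whose mean TPM was at least 100, so nothing is read from this count. For 3 of the 10 the groups did not overlap. PCSK2 per 1000 insulin TPM was 1.502, 1.58, 1.99 and 1.54 in the βPrlR+/− mice, compared with 1.44, 1.34 and 1.27 in the Prlr+/− mice. CPE was 2.87, 3.21, 3.52 and 3.21 compared with 2.86, 2.58 and 2.53, so that its groups were separated only by the narrow gap between 2.87 and 2.86. VGF was 0.0223, 0.0264, 0.0241 and 0.0242 compared with 0.0176, 0.0186 and 0.0181. CHGA overlapped, at 14.3 to 17.4 in the βPrlR+/− mice, compared with 11.3 to 14.8 in the Prlr+/− mice. By the same measure 20.7% of all genes tested, and 42.7% of those whose mean TPM was at least 100, lay wholly lower in the Prlr+/− mice (0.0943% of all genes wholly higher). PCSK2 and CPE belong to the latter group of genes and VGF does not, and with 3 of 10 members nothing is read from the comparison of these shares. Insulin took 46.1% to 53.2% of TPM in the βPrlR+/− mice, compared with 54.0% to 58.9% in the Prlr+/− mice, so the divisor moved with the group. Together the 10 genes made up 1.60% ± 0.10 (SD, n = 4) and 1.42% ± 0.15 (SD, n = 3) of all TPM, and 3.30% ± 0.34 and 3.29% ± 0.45 of the TPM without insulin.

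**Figure D4:**
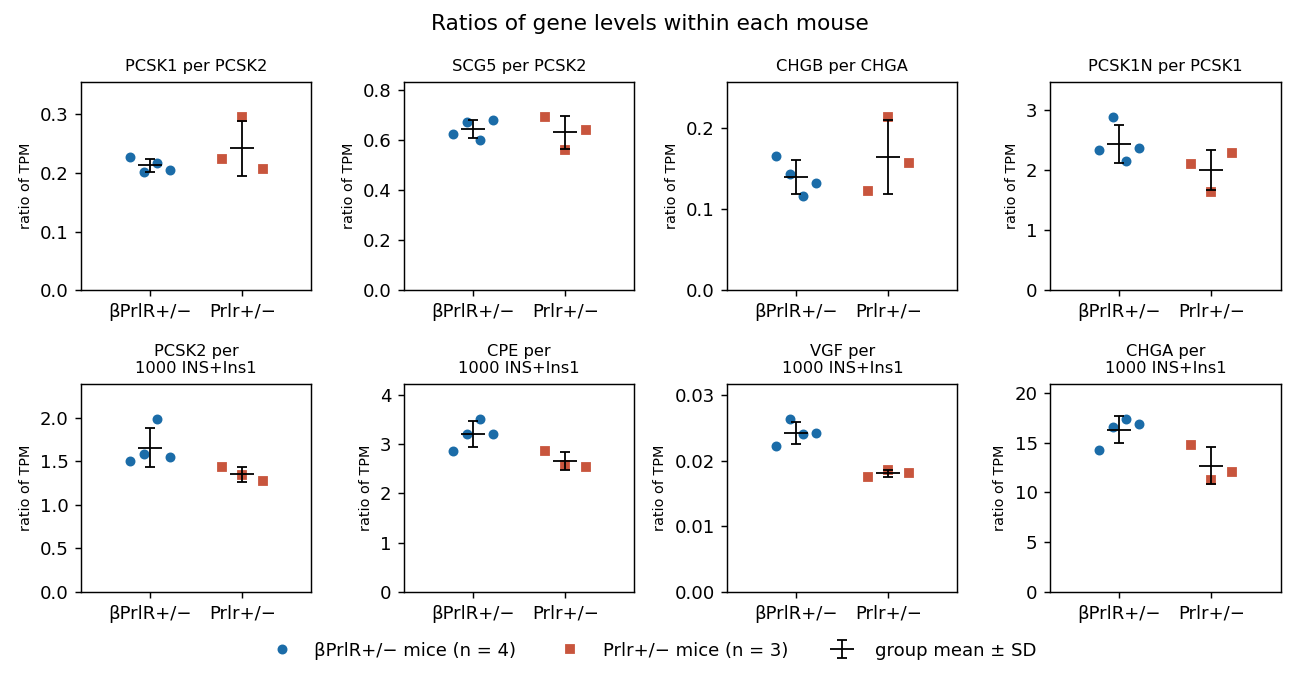
Ratios of the levels of partner genes within each mouse (vertical axes, ratio of TPM, each from 0), with blue circles for the 4 βPrlR+/− mice, red squares for the 3 Prlr+/− mice and bars for the mean ± SD. The groups overlap in the upper row and for CHGA, and they do not overlap for PCSK2, CPE and VGF per 1000 TPM of INS and Ins1.

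The tables list 37 transcripts for the 10 genes, of which 21 passed the filter. None of the 21 passed limma's test over all 28553 transcripts, where 0.021% did, and none had an unadjusted p under 0.05, where 3.91% did. Their log2 fold changes ran from −0.35 to 0.25. CHGA, CHGB, SCG5, PCSK2 and CPE have 1 transcript each. The 2 curated transcripts of SCG2 held 62.9% to 66.7% and 33.3% to 37.1% of the gene, and the 2 of SCG3 held 61.4% to 66.9% and 33.0% to 38.5%. In PCSK1 a predicted transcript held 50.6% ± 5.76 (SD, n = 4) in the βPrlR+/− mice, compared with 51.1% ± 8.54 (SD, n = 3) in the Prlr+/− mice, and the curated transcript held 43.0% ± 5.12 and 42.9% ± 7.93. PAM has 12 models listed, of which 7 passed the filter, and 2 predicted ones held 44.3% to 53.6% and 21.0% to 27.3%, while the curated one held 4.53% to 7.25%. Shares of transcripts that overlap in sequence are estimates of the pseudoaligner and are less certain than the gene totals.

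Nor did any other gene of prohormone processing pass the test. Of a list of 17 further convertases, inhibitors, peptidases and glutaminyl cyclases, 16 were found and 13 tested, 0 passed the adjusted test in either direction, and the median log2 fold change was −0.0079, with 5 above 0 and 8 below. PCSK1N had 416 ± 42.1 scaled TPM in the βPrlR+/− mice, compared with 384 ± 27.1 in the Prlr+/− mice (log2 fold change −0.11, SE 0.10). FURIN, the convertase of the constitutive pathway, had 28.8 ± 3.47 and 25.5 ± 2.31 (log2 fold change −0.17, SE 0.11), and with PCSK6 at −0.15 it was the lowest of the list. The highest were RNPEP, at 0.16, and QPCT. QPCT encodes glutaminyl cyclase, which forms pyroglutamate at the start of peptides, and was the only gene of the list with an unadjusted p under 0.05. It had 2.43, 1.94, 2.36 and 1.94 scaled TPM in the βPrlR+/− mice, compared with 2.76, 2.97 and 2.60 in the Prlr+/− mice, a log2 fold change of 0.26 (SE 0.089, limma adjusted p = 0.962). Its groups did not overlap, but it did not pass the adjusted test, and its level is low.

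Genes of the granule membrane and of granule biogenesis did not pass the test either. Of 18 listed, 17 were found and tested, 10 were above 0 and 7 below, the median was 0.033 and 0 passed the adjusted test. PTPRN, which encodes the granule membrane protein IA-2, had 135 ± 9.36 scaled TPM in the βPrlR+/− mice, compared with 139 ± 6.94 in the Prlr+/− mice (log2 fold change 0.046). The highest of the list were CADPS, a priming factor of dense-core granules, at 0.17, and RAB3D at 0.10. CADPS2, its paralog, was the lowest at −0.20 (SE 0.082, limma adjusted p = 1.0), with 3.52 ± 0.25 and 2.94 ± 0.30 scaled TPM and no overlap of the groups, followed by PICK1 at −0.050.

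Precursors cut by these enzymes did not pass the test, although their fold changes covered a wider range. All 12 listed were tested, 4 were above 0 and 8 below, with a median of −0.22, and 0 passed the adjusted test. That median rested in part on βPrlR+/− mouse 2, without which it was −0.064, and in TPM as deposited it was −0.37. INS was at 0.30 (SE 0.96) and Ins1 at 0.25 (SE 0.56), where the SE comes with a variance that the model lets depend on the level. The spread of the mice around their group means was much smaller, an SD of 0.17 log2 units for INS and 0.15 for Ins1. These wide SEs are therefore not the spread between the mice, and the test says little about either insulin gene. Gcg, proglucagon, had 18655 ± 3280 scaled TPM in the βPrlR+/− mice, compared with 14842 ± 265 in the Prlr+/− mice (log2 fold change −0.31, SE 0.25), and SST, somatostatin, was at −0.23 (SE 0.21). The highest fold change was that of UCN3, a peptide of mature β-cells, at 0.57 (SE 0.27), and the lowest was that of VIP, at −0.69. NPY, the next lowest, had 32.8, 62.4, 32.8 and 32.9 scaled TPM in the βPrlR+/− mice, compared with 26.8, 22.5 and 25.2 in the Prlr+/− mice, without overlap (log2 fold change −0.62, SE 0.23, limma adjusted p = 1.0). VIP and NPY are also made by islet nerves. The summed level of 6 neuron markers was 43.4 to 49.2 in the βPrlR+/− mice, compared with 30.8 to 42.1 in the Prlr+/− mice. Most of that sum was TH, whose groups overlapped (27.7 to 33.0 compared with 22.5 to 34.1, log2 fold change −0.12). Of the 5 neuron markers tested, 5 were below 0, with a median of −0.51. STMN2 and PRPH of that list were called lower (limma adjusted p = 0.0173 and 0.0242). The summed level of 5 α-cell markers was 15183 to 23022 compared with 15216 to 15725, with a fold change below 0 in 5 of 5. Most of that sum was Gcg, already given among the precursors. All 9 β-cell markers were above 0, with 0 called and a median of 0.30, the value of INS. INS, Ins1, IAPP and UCN3 are in both the β-cell and the precursor list. The part of cell composition in the values of the members was not tested.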

How the data were processed

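Islet RNA from 4 βPrlR+/− and 3 Prlr+/− mice was sequenced, and the mice were grouped by the deposited labels. Poly(A) RNA was enriched for strand-specific libraries, and the authors used Kallisto 0.42.4 for pseudoalignment to the RefSeq transcripts of the mouse, and no genome build is given in the sources used here. The methods call the values FPKM, but each mouse sums to 1000000, and the deposited values were treated as TPM. Depth cannot be read from TPM, no counting intervals are printed, and precision rests on the spread between mice. Gene values were the sums of their transcripts within rounding, all 7 columns were mapped (0 left out), and no pair of libraries shared more than 1 nonzero value. The labels do not say that the mice were processed in batches.

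Each mouse had a median-ratio size factor, by which TPM was divided, from genes above 0 in every mouse and with a mean TPM of at least 0.5. Genes of that mean were fitted on log2(scaled TPM + 1) with limma 3.58.1 in R 4.3.3 (moderated test, mean-dependent variance, Benjamini-Hochberg, threshold 0.05). A fold change on that scale understates changes of low genes. The study used Sleuth, which was not run here. The fit was tested on simulated data. The members, lists and tests were chosen with earlier results of these data known. All 10 members are named. Of other lists, PCSK1N, FURIN, QPCT, PTPRN, INS, Ins1, Gcg and SST, genes past the threshold and the 2 lowest and 2 highest fold changes of each list are named. CADPS2, NPY, PRLR and the markers were added beside a result they touch. In the pattern search, the genes nearest to the member with the smallest p were taken. Marker lists were β-cell, α-cell, δ-cell, PP-cell, acinar, duct, endothelial, leukocyte, fibroblast, neuron and glia. Promoters came from RefSeq (GRCm38.p6). Alternatives were other scalings, a pseudocount of 0.1, other filters, other variance models, an acinar covariate, a threshold of 0.01 and fits without 1 mouse. Python 3.11.15, numpy 2.4.6, pandas 2.3.3 and matplotlib 3.10.9 were used.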

Additional observations from a re-analysis of the deposited data

Results flagged for a closer look

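In the βPrlR+/− group of 4 mice, 28 values (levels and ratios) were searched for a mouse far from the other 3, by the gap to its neighbour over the whole range. Chance alone gives about 1 such value in 20, and 2 of the 28 were flagged, so they are given as a description only. CPE was lowest in βPrlR+/− mouse 3, at 1464 scaled TPM (gap over range 0.965), with the other 3 mice at 1599 to 1604. PCSK2 per 1000 TPM of INS and Ins1 was highest in the same mouse, at 1.99 (gap over range 0.830), which is also the mouse with the lowest share of insulin, 46.1% of TPM. Without this mouse the log2 fold change of CPE was −0.015. The ratio of PCSK2 to insulin in the other 3 βPrlR+/− mice, 1.502 to 1.58, still lay above the 1.27 to 1.44 of the Prlr+/− mice.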

How the results depend on the processing

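No member, and no gene of the 3 other lists, passed limma's adjusted test under any setting. The lowest adjusted p of a member was 0.590 (TPM as deposited). The SE of CHGA (0.20) was 0.80 with all genes above 0, that of SCG2 (0.14) was 0.26 and that of CPE (0.11) was 0.19. With no mean-dependent variance these SEs were 0.13, 0.11 and 0.087. VGF (−0.26 to −0.074), PCSK1 (0.024 to 0.23) and PAM (−0.27 to −0.053) kept their direction in all 18 alternatives. In TPM as deposited the median of all genes was −0.12, the processing list was at −0.14, the granule list at −0.11, the precursor list at −0.37, CHGB at −0.0061, SCG2 at −0.14 and CPE at −0.13. Without the insulin genes SCG3 was at 0.0080 and PCSK2 at 0.016. Of the scalings added after seeing the data, size factors from all genes above 0 gave 0.0088 for SCG3 and 0.017 for PCSK2, and those from genes of a mean TPM of at least 10 gave −0.016 for SCG2 and −0.0083 for CPE. Leaving out 1 mouse gave −0.18 to 0.076 for CHGA, 0.0084 to 0.23 for CHGB, −0.057 to 0.15 for SCG2, −0.038 to 0.050 for SCG3, −0.14 to 0.12 for SCG5, −0.039 to 0.075 for PCSK2 and −0.027 to 0.11 for CPE. The list medians then ran from −0.083 to 0.050 (processing), −0.016 to 0.074 (granule) and −0.27 to −0.064 (precursors, the last without βPrlR+/− mouse 2). The upper end for CHGA, SCG2, SCG5, PCSK2 and CPE came without Prlr+/− mouse 2. These fits keep 2 or 3 mice in a group. Over all genes, the 10 called became 6 with upper-quartile scaling, a mean TPM of at least 5, the acinar covariate or size factors from all genes above 0, 18 with a pseudocount of 0.1, 4 with all genes above 0, 2 at an adjusted p under 0.01, and 2 to 13 with 1 mouse left out, the fewest without mouse 4 and the most without mouse 3 of the βPrlR+/− group. It was 5 without βPrlR+/− mouse 1, Prlr+/− mouse 1 or Prlr+/− mouse 2. The causes were not tested. No paired analysis was possible because the labels give the mice no shared replicate numbers.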

Other observations

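The member with the smallest p, PCSK1, was compared with the 6169 genes of a mean TPM of at least 10 for likeness over the 7 mice, as Pearson's r of log2 scaled TPM and with no test. The nearest were POLB, encoding DNA polymerase β (r = 0.977, 16.6 scaled TPM in the βPrlR+/− and 18.5 in the Prlr+/− mice), MNS1 (r = 0.976, 10.9 and 13.3) and A530058N18Rik (r = 0.973, 20.1 and 24.9). Over so few mice and so many genes these values are a description only, and the genes compared share libraries and scaling. The δ-cell markers summed to 4416 to 7144 scaled TPM in the βPrlR+/− and 4137 to 5118 in the Prlr+/− mice, and the PP-cell markers to 12737 to 14865 and 10948 to 12492. Endothelial markers were below 0 in 5 of 5 genes, with sums of 145 to 180 and 122 to 154 and 0 called. Of these 5, 3 had an unadjusted limma p under 0.05, beside 4.52% of all genes. In PECAM1 and CDH5 the groups did not overlap, beside 4.95% of all genes. Sums were low for leukocytes (2.54 to 6.29), fibroblasts (7.53 to 19.1), ducts (13.3 to 24.1) and glia (5.36 to 8.11), with 0 called in each.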
